A study of Mus musculus with 2 samples.

Results

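The glucocorticoid receptor gene Nr3c1, the cortisone-activating enzyme gene Hsd11b1 and 8 genes known to be induced by glucocorticoids were examined in RNA sequencing of whole mouse omentum. They were found by gene symbol, and all 10 were listed among the 24346 symbols of each library. The omentum, a fatty fold of the peritoneum, contains milky spots, in which leukocytes gather on a stromal network. A WT library and a Postn-DTR library were made, and both genotypes had received diphtheria toxin (DT) 5 days earlier. Postn-DTR mice are heterozygotes that carry the diphtheria toxin receptor within the first protein-coding exon at the Postn locus, so any cell that uses the Postn promoter is sensitive to DT, and they were made in C57BL/6 zygotes. The sources used here do not give sex, age, time of day at collection or whether mice were pooled for these 2 libraries.

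Glucocorticoids are steroid hormones of the adrenal cortex that follow a daily rhythm and rise with stress and inflammation. Inside cells, 11-beta-hydroxysteroid dehydrogenase type 1, the product of Hsd11b1, regenerates active hormone from its inert keto form. Bound hormone releases the receptor from a chaperone complex, and the receptor then enters the nucleus, where it activates some genes through palindromic DNA elements and restrains many inflammatory genes. In fat the hormone acts on adipocytes, stromal cells and leukocytes alike, and its targets include genes that damp the response itself.

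With 1 library per genotype, no spread between animals could be measured, no test was possible, and no difference below has a replicate check. Values are FPKM, fragments scaled to transcript length and library size, so that levels of different genes can be set side by side. The change of a gene is its log2(FPKM + 1) in Postn-DTR less that in WT, and the added 1 makes it an underestimate for low genes. A gene is called higher or lower where this change reached 2-fold, among the 13127 genes whose FPKM averaged at least 1. Ratios are ratios of the FPKM without the added 1. Each ratio of the 10 genes is followed by a 95% exact (Clopper-Pearson) interval from the fewest fragments that its FPKM allows, and these intervals cover counting error only.

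The libraries differed well beyond these genes. The sum of all FPKM was 542190 for WT and 671882 for Postn-DTR, at similar estimated depths of 23250000 and 24050000 fragments. Postn itself was at 58.3 FPKM in the WT library and 16.2 in Postn-DTR, which was 3.61-fold lower. Summed FPKM of 25 pancreatic acinar markers was 11922 in WT and 25.01 in Postn-DTR. Higher genes made up 55.4% of all genes called, but 27.9% when acinar genes were left out and library totals were made equal. When the libraries were scaled to the same 75th percentile instead, the share was 47.1%. The median change over all genes shifted by -0.30 with the rescaling to equal totals. Acinar markers held 11922 of the 542190 FPKM in WT, so most of this shift comes from equalising the totals.

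Sequence upstream of the transcription starts was inspected first, because direct targets of the receptor can carry its element there. RefSeq promoters (GRCm38.p6, 250 bases before to 50 after each start) were held for 8 of the 10 genes, with 17 promoters between them, and not for Nr3c1 and Zbtb16. The palindromic glucocorticoid response element was searched as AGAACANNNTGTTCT, its single arm as AGAACA, the cAMP response element as TGACGTCA and the E-box, which clock proteins bind, as CACGTG, each on both strands. The arm lies inside the full element, so the 2 searches overlap. The full element occurred in 1 of the 17 promoters, that of an internal start of Sgk1, and in 3 of 32851 promoters overall (0.00913%). The arm occurred in 4 of 17 promoters, from Sgk1 and Tsc22d3, against 19.0% of all promoters. The E-box occurred in 4 of 17, 1 each from Dusp1, Fkbp5, Per1 and Sgk1, against 7.15% of all. The cAMP response element occurred in 1 of 17, that of Dusp1, against 1.79% of all. These matches are descriptions of letters and not evidence of binding, and many receptor sites lie far from promoters. The promoters of Dusp1, Fkbp5 and Per1 held neither the full element nor the arm. The 5 stretches below hold the full element, an arm beside Tsc22d3, or elements of other pathways in Dusp1, Fkbp5 and Per1. They read 5′ to 3′ on the strand of the gene, with the matched letters in capitals. None overlaps an annotated exon.
Sgk1, chr10:21993640-21993745, plus strand, 250 to 145 bases upstream, with an E-box that runs into an arm and then the full element: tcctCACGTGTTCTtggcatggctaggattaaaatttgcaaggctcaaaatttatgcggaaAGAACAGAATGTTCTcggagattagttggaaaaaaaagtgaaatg
Tsc22d3, chrX:140600672-140600737, minus strand, with the arm on the other strand: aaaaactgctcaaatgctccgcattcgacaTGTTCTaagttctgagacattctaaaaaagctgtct
Dusp1, chr17:26508563-26508645, minus strand, with the cAMP response element and then an E-box: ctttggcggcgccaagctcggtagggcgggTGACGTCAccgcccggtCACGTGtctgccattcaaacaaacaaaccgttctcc
Fkbp5, chr17:28486283-28486348, minus strand, with an E-box: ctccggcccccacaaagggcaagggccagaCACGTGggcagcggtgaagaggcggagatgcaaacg
Per1, chr11:69098753-69098818, plus strand, with an E-box: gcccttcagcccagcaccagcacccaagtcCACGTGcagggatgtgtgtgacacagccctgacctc

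Of the 10 genes, 8 were higher in Postn-DTR by at least 2-fold and 0 were lower, against 3.88% of all genes compared that were higher and 3.12% that were lower. The other 2 were the receptor gene and Zbtb16. With any difference counted, 9 had the higher value in Postn-DTR, against 51.9% of all genes. The median change of the 10 genes was 1.33, and that of all genes compared was 0.02. Among the 8 induced genes, 7 were higher, and their summed FPKM was 321.4 in WT and 961.0 in Postn-DTR, a ratio of 2.99. Whole tissue was sequenced, so a different number of cells of a type and a different RNA level per cell cannot be told apart here.

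**Figure D1:**
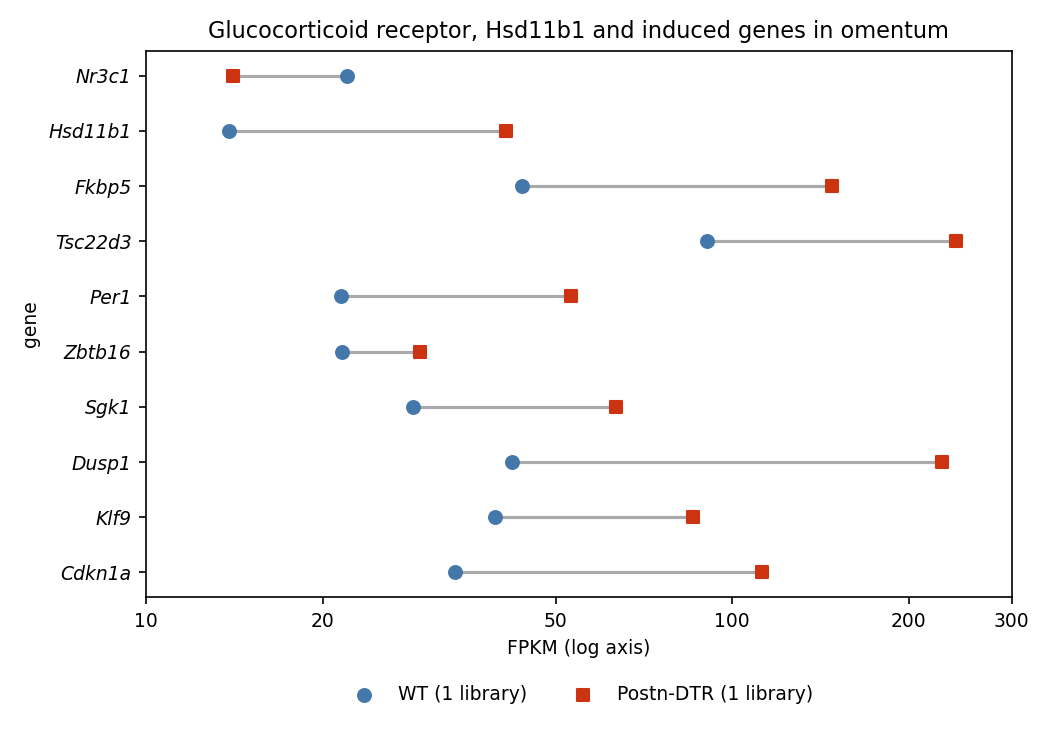
FPKM of the 10 genes on a log axis, with 1 point for the WT library (circles) and 1 for the Postn-DTR library (squares), joined by a line. Nr3c1 runs from 22.05 down to 14.1, whereas the other 9 genes lie to the right in Postn-DTR, from Zbtb16 at 29.3 to Tsc22d3 at 241.4.

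The receptor stood apart from its targets. Nr3c1 (ENSMUSG00000024431), which encodes the glucocorticoid receptor, had 22.05 FPKM in the WT library and 14.1 FPKM in Postn-DTR. The ratio was 0.639 (0.582 to 0.703) and the change -0.61, within 2-fold, with 8.27% of all genes compared changing further downwards. Nr3c1 was the only one of the 10 genes with the lower value in Postn-DTR. In the order of levels it stood at place 7 of 10 in WT and at place 10 in Postn-DTR. Of related steroid receptor genes, Esr1, an estrogen receptor, was at 3.72 in WT against 1.63 in Postn-DTR, within 2-fold on this scale. Nr3c2, the mineralocorticoid receptor, which also binds glucocorticoids, was at 1.60 and 1.19. Pgr and Esr2 did not reach the minimum.

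Hsd11b1 (ENSMUSG00000016194, chromosome 1, 193221640 to 193264045, minus strand, GRCm38) had the lowest level of the 10 genes in WT. It rose from 13.8 FPKM in WT to 41.1 FPKM in Postn-DTR, a ratio of 2.97 (2.64 to 3.39) and a change of 1.51. Only 1.68% of all genes compared changed further upwards. H6pd, which supplies the NADPH that lets the enzyme run in the activating direction, was at 97.7 and 153.6, a change of 0.65 that stayed under 2-fold. Hsd11b2 encodes the opposing enzyme, which inactivates the hormone. It was at 1.46 in WT against 0.579 in Postn-DTR, so that Hsd11b1 exceeded it 9.48-fold in WT and 70.9-fold in Postn-DTR. The Hsd11b2 values are close to the minimum. H6pd and Hsd11b2 belong to a list of 11 genes of corticosteroid supply, export and reception, of which 7 were compared. Of these 7, 2 were higher and 0 lower, beside 3.88% and 3.12% of all genes, with a median change of 0.04. The higher ones were Abcb1b, a drug and steroid exporter (11.9 and 53.4), and Cyp11a1, which starts steroid synthesis (0.382 and 2.96). Serpina6, Cyp11b1 and Srd5a2 were listed at 0 in both libraries.

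Genes of the receptor's feedback loop came next. Fkbp5 (ENSMUSG00000024222, chromosome 17, 28398753 to 28486149, minus strand) encodes FKBP51, a co-chaperone that lowers the receptor's affinity for hormone and is itself induced by it. Its FPKM was 43.8 in WT and 148.0 in Postn-DTR, a ratio of 3.38 (3.18 to 3.62) and a change of 1.73. This was the second largest change of the 10 genes, with 1.24% of all genes compared above it. Fkbp4 encodes FKBP52, which competes for the same place in the receptor complex and favours hormone binding. It was at 57.1 in WT against 40.7 in Postn-DTR, within 2-fold. The level of Fkbp5 was therefore 0.767 times that of Fkbp4 in WT and 3.63 times in Postn-DTR, and the order of these paralogs was opposite in the 2 libraries. Of 13 other FKBP genes compared 2 were higher, against 3.88% of all genes, namely Fkbp1b (4.03 and 12.4) and Fkbp11 (12.8 and 35.03). The median change of the 13 was 0.17.

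Genes for the machinery that folds the receptor and relays its signal were listed beside it, and 0 of 25 compared were called, beside the 3.88% of all genes that were higher and the 3.12% that were lower, shares so low that this count does not set the list apart. None of 12 chaperone genes compared was called in either direction, and their median change was -0.03. Hsp90aa1 was at 110 in both libraries to the nearest whole FPKM, and Hsp90ab1 at 575.9 and 563.5. None of 13 coregulator genes compared was called either, with a median of 0.08, and the largest change among them was that of Ncoa1, at 6.16 and 10.05. Both medians are smaller than the shift of -0.30 between scalings.

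A pair of anti-inflammatory targets were among the most abundant of the group in both libraries. Tsc22d3 (ENSMUSG00000031431, chromosome X, 140539528 to 140600522, minus strand) encodes GILZ, a leucine zipper protein that restrains NF-kappaB and AP-1. It had the highest level of the 10 genes in each library, at 90.8 FPKM in the WT library and 241.4 FPKM in Postn-DTR. The ratio was 2.66 (2.53 to 2.84) and the change 1.40. Its paralogs Tsc22d1, Tsc22d2 and Tsc22d4 were all within 2-fold, with a median change of 0.12, and Tsc22d1 was at 113.1 and 123.0 FPKM.

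Dusp1 (ENSMUSG00000024190, chromosome 17, 26505591 to 26508472, minus strand) encodes a phosphatase that switches off MAP kinases. It changed most of the 10 genes, from 42.2 FPKM in WT to 227.9 FPKM in Postn-DTR. The ratio was 5.40 (5.12 to 5.75) and the change 2.41, with 0.625% of all genes compared above it. Of 9 other dual-specificity phosphatase genes compared, 1 was higher, against 3.88% of all genes, namely Dusp14 (2.04 and 6.69). The median change of the 9 was -0.25. Dusp1 made up 33.4% of the summed FPKM of 11 such genes in WT and 76.0% in Postn-DTR. Ergic1 shares 11 bp of exon with it on the opposite strand.

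**Figure D2:**
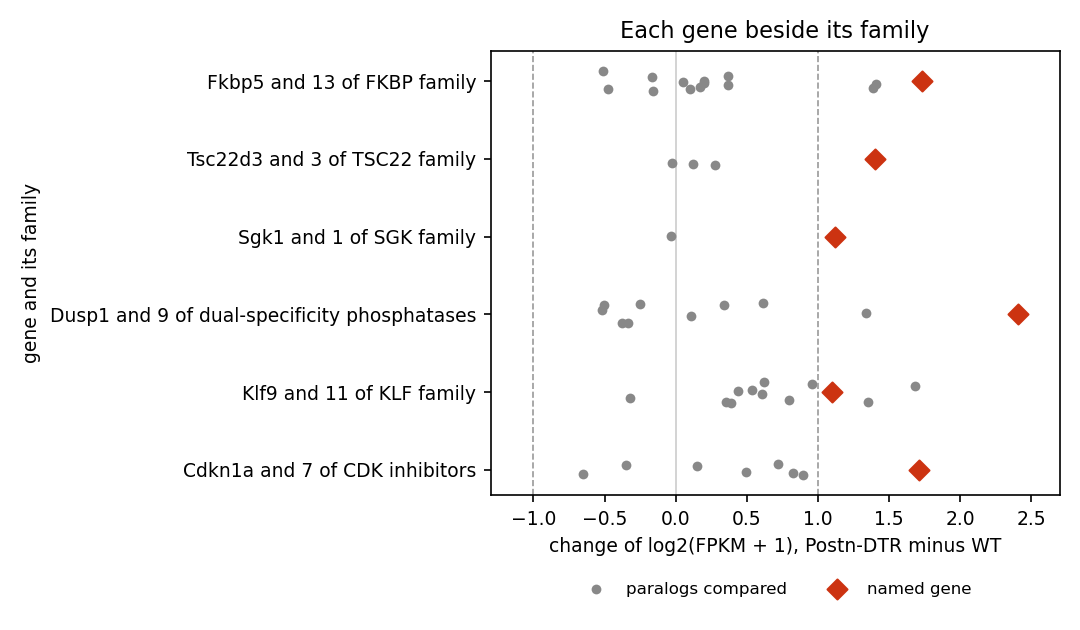
Change on the log2(FPKM + 1) scale from WT to Postn-DTR of 6 of the genes (diamonds) beside the paralogs that passed the minimum (grey points). Dashed lines mark 2-fold. Dusp1 at 2.41, Fkbp5 at 1.73, Cdkn1a at 1.71 and Tsc22d3 at 1.40 lie to the right of every paralog plotted beside them, whereas Klf5 and Klf2 lie to the right of Klf9.

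Targets tied to other signals were described next. Per1 (ENSMUSG00000020893, chromosome 11, 69095108 to 69109965, plus strand) is a core clock gene that hormone and cAMP also induce directly. It went from 21.5 FPKM in WT to 53.1 FPKM in Postn-DTR, a ratio of 2.47 (2.34 to 2.62) and a change of 1.27. Klf9 (ENSMUSG00000033863, chromosome 19, 23141226 to 23168129, plus strand), a zinc finger repressor that follows hormone in many tissues, rose from 39.4 to 85.7. Its ratio was 2.17 (2.096 to 2.26) and its change 1.10, the smallest of the 8 calls. Of 11 other KLF genes compared, 2 were higher, against 3.88% of all genes, namely Klf2 (96.2 and 246.8) and Klf5 (1.10 and 5.72). Of the 11, 10 had a change above 0, with a median of 0.60.

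Sgk1 (ENSMUSG00000019970, chromosome 10, 21882184 to 21999903, plus strand) encodes a kinase that is induced by corticosteroids and by serum and governs ion transport. It holds the full element printed above. Its FPKM was 28.5 in WT and 63.3 in Postn-DTR, a ratio of 2.22 (2.09 to 2.37) and a change of 1.12. Its relative Sgk3 was at 6.35 and 6.17, and Sgk2 did not reach the minimum. The deposited values do not separate the starts of Sgk1, so which of its promoters was in use is not known.

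Cdkn1a (ENSMUSG00000023067, chromosome 17, 29090979 to 29100722, plus strand) encodes the cell cycle inhibitor p21, a target of p53 as well as of the receptor. Its FPKM was 33.7 in WT and 112.3 in Postn-DTR, a ratio of 3.34 (3.06 to 3.70) and a change of 1.71. None of 7 other CDK inhibitor genes was called, beside 3.88% of all genes that were higher and 3.12% that were lower. With so few genes this count does not set Cdkn1a apart. Of the 7, 5 had higher values and 2 lower, with a median change of 0.49. Cdkn2a (1.33 and 3.32) and Cdkn3 (1.73 and 3.49) had FPKM ratios of 2.50 and 2.02. An unnamed transcript shares 261 bp of exon with Cdkn1a on the opposite strand, and whether strand was used in counting is not given in the sources used here.

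Zbtb16 (ENSMUSG00000066687, chromosome 9, 48651797 to 48836225, minus strand) encodes PLZF, a zinc finger factor that hormone induces strongly in many cultured cells. It was the exception among the induced genes, at 21.6 FPKM in the WT library and 29.3 FPKM in Postn-DTR. The ratio was 1.36 (1.26 to 1.47) and the change 0.42, and 15.7% of all genes compared changed further upwards. With the acinar genes removed and totals made equal, its change was 0.096. PLZF also marks innate-like lymphocytes, and all 7 T cell markers compared had lower values in Postn-DTR. Their part in the Zbtb16 value was not tested.

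The 8 calls did not all hold when the libraries were rescaled. With the acinar genes removed and totals made equal, 5 were left, namely Dusp1 (2.07), Fkbp5 (1.40), Cdkn1a (1.37), Hsd11b1 (1.18) and Tsc22d3 (1.06). The changes of Per1, Sgk1 and Klf9 were then 0.94, 0.79 and 0.77. Relative to the median change of all genes under that same scaling, which was -0.28, the values were 1.22 for Per1, 1.07 for Sgk1 and 1.05 for Klf9. Nr3c1 stood at -0.93 under it. No sign among the 10 genes turned under any of the 4 settings in which each gene was recomputed. A different added value, as in the pseudocount settings, cannot turn a sign, so only the scalings could have done so.

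**Figure D3:**
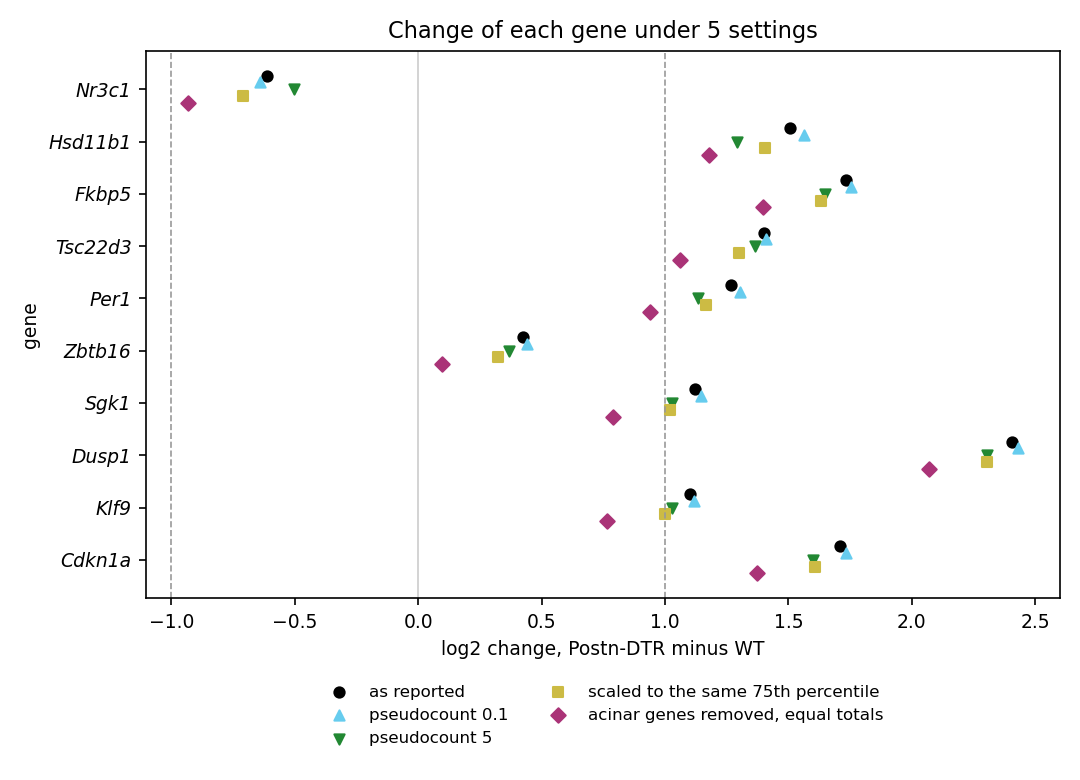
Log2 change, Postn-DTR minus WT, of the 10 genes under 5 settings (symbols), with dashed lines at 2-fold. Removing the acinar genes and equalising totals (diamonds) shifts every gene to the left, and Per1, Sgk1 and Klf9 then lie under 2-fold at 0.94, 0.79 and 0.77.

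Further genes that hormone is known to induce were compared as a list. Of 32 such genes 18 were higher (56.2%) and 0 lower, against 3.88% and 3.12% of all genes compared. Of the 32, 28 had a change above 0, against 51.9% of all genes, and the median change was 1.21. The metallothioneins Mt2 (77.4 and 3543) and Mt1 (190.2 and 3963), which bind zinc, and Lcn2 (37.7 and 1908), an iron-siderophore binding protein, were the highest. Il1r2, a decoy receptor for interleukin 1, was at 0.864 and 20.1. Pdk4, which spares glucose from oxidation, went from 14.3 to 75.9, and Ddit4, an inhibitor of mTORC1, from 34.7 to 172.5. Inflammatory cytokines also induce several of these genes. Pik3r1, at 39.0 and 23.2, had the lowest change of the list, -0.72. Angptl4 and Tns1, whose values were above 0, turned below 0 at equal totals.

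Genes that the receptor is known to restrain did not have lower values as a group. Of 16 compared out of 22 listed, 10 were higher, against 3.88% of all genes, with a median change of 1.28. That 0 were lower does not set the list apart, since only 3.12% of all genes were lower. The neutrophil chemokines Cxcl1 (1.78 and 34.9) and Cxcl2 (0.731 and 12.1), the chemokine Ccl3 (1.75 and 15.5) and the growth factor Csf3 (0.0739 and 10.1) had the largest changes. Il6 was at 0.436 and 5.58, and Il1b at 1.87 and 8.19. Levels of these genes were mostly low. Ccl2 (14.4 and 40.8) and Ccl5 (102.2 and 207.0) were also called, at larger values, with Ccl5 just past 2-fold at 1.01. When the mean had to reach 10 FPKM, 7 genes were compared, of which 3 were higher. On the other side Tnf was at 3.76 and 2.26, Cxcl10 at 18.3 and 12.8 and Nos2 at 1.70 and 0.624.

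**Figure D4:**
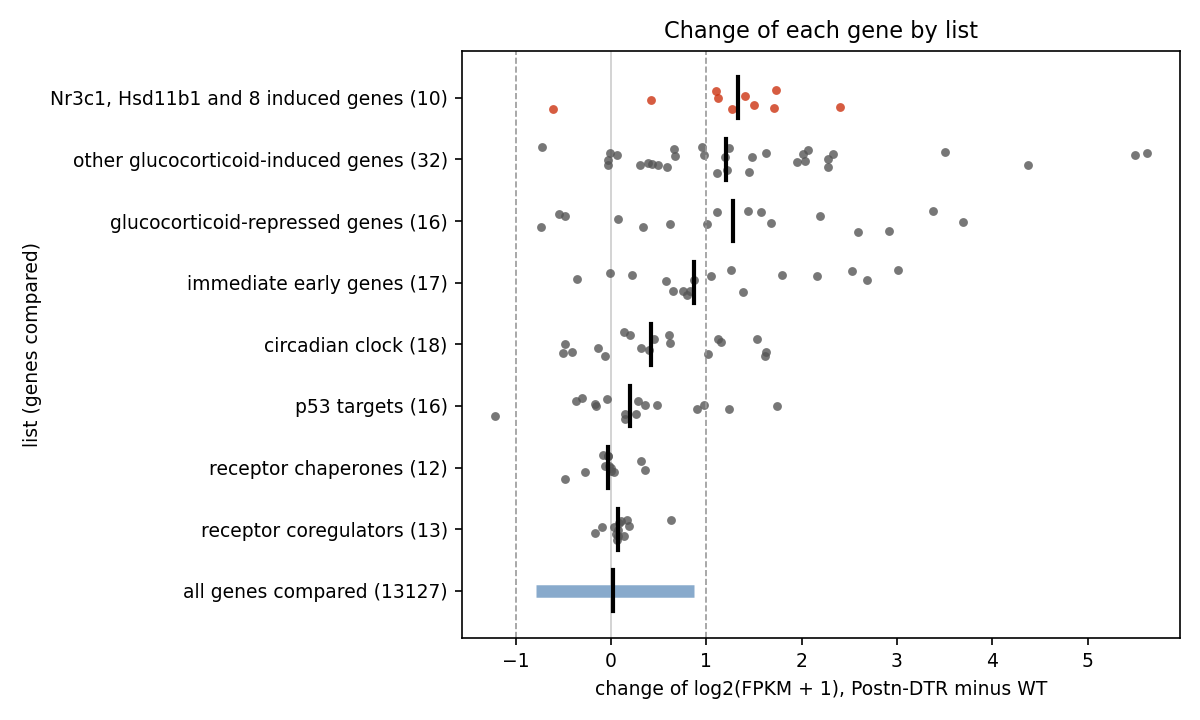
Change on the log2(FPKM + 1) scale from WT to Postn-DTR of each gene compared in 8 lists, with black bars at the medians and dashed lines at 2-fold. The blue bar spans the 5th to 95th percentile of all 13127 genes, from -0.79 to 0.87, and the medians of the 10 genes (1.33), the other induced genes (1.21) and the restrained genes (1.28) lie to the right of it.

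Since Per1, Dusp1, Sgk1 and Cdkn1a answer to other signals, lists for those signals were set beside them. Per2 stands both in the clock list and in the list of induced genes above. Over all genes compared, 3.88% were higher and 3.12% lower. Of 17 immediate early genes compared, 8 were higher and 0 lower, with a median of 0.87. Ier3 was at 21.2 in WT against 178.0 in Postn-DTR, Fos at 10.6 and 73.9, Egr1 at 23.6 and 141.3, and Junb at 41.5 and 189.2. Nr4a3 (1.04 and 6.08) and Ier2 (25.4 and 68.0) were higher too. Of 18 other clock genes 6 were higher and 0 lower, with a median of 0.42. They were Per2 (1.43 and 6.52), Nfil3 (12.9 and 41.6), Hlf (1.71 and 6.82), Ciart (0.971 and 3.37), Bhlhe40 (21.1 and 47.1) and Cry1 (3.37 and 7.83). The clock genes Arntl (12.3 and 15.5) and Nr1d1 (54.8 and 38.9), which peak at opposite phases of the day, stayed within 2-fold. Of 16 other p53 targets 2 were higher and 1 lower, with a median of 0.20 that became -0.10 at equal totals. Trp53inp1 (15.95 and 55.5) and Gdf15 (1.12 and 3.998) were higher and Phlda3 (85.1 and 36.04) lower, while Mdm2, the classic feedback target of p53, was at 18.5 and 22.9. The part of early response, clock or p53 signalling in the values of Per1, Dusp1, Sgk1 and Cdkn1a was not tested.

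Cell type markers moved with the genotype as well, and their counts stand beside 3.88% of all genes higher and 3.12% lower. Of 8 macrophage markers 8 had higher values in Postn-DTR, 4 of them by at least 2-fold, and their summed FPKM was 2878 in WT and 4819 in Postn-DTR. Most of both sums was Lyz2 (2459 and 3563), which was within 2-fold. The 4 called were Cd14 (33.6 and 230.1), Itgam (46.8 and 251.9), Adgre1 (41.1 and 137.6) and Cd68 (113.8 and 369.4). The paper also counted cells of the omentum 5 days after DT, and it reports unaltered macrophage and B1 cell numbers. By those counts Postn-DTR omenta held fewer T cells, fewer conventional B cells and fewer leukocytes in all. Neutrophil markers were split, with 2 of 7 higher and 3 lower, at sums of 424.4 and 687.5. Of 7 T cell markers 5 were lower, at sums of 86.8 and 37.4, of 7 B cell markers 3, at sums of 486.6 and 332.5, and of 8 fibroblast markers 4, at sums of 3974 and 1889. Those 4 were Dpt, Postn, Clec3b and Gsn. Postn is the targeted gene, and the paper reports Clec3b and Gsn as high in the cluster it assigns to the ablated cells. Pdgfra (26.0 and 29.2) and Pdpn (46.6 and 57.1) had higher values, the only 2 of the 8, and both turned below 0 at equal totals. Mesothelial markers, with 1 of 5 lower, summed to 467.6 and 473.7, and none of 6 endothelial markers was called, at sums of 244.8 and 246.4. Of 8 adipocyte markers 1 was lower by 2-fold and 5 had lower values, with a median change of -0.37. Their sums of 7392 and 8618 were set mostly by Fabp4 (4879 and 6519), and without it they were 2512 and 2098. Of 23 acinar markers compared 22 were lower, and 7 of the 25 listed were at 0 in Postn-DTR. In none of the lists for leukocytes, stroma, vessels and fat was a marker at 0 in either library. Macrophages, fibroblasts and adipocytes all express the receptor and several of its targets, and the part of altered cell content in the values of the 10 genes was not tested.

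**Figure D5:**
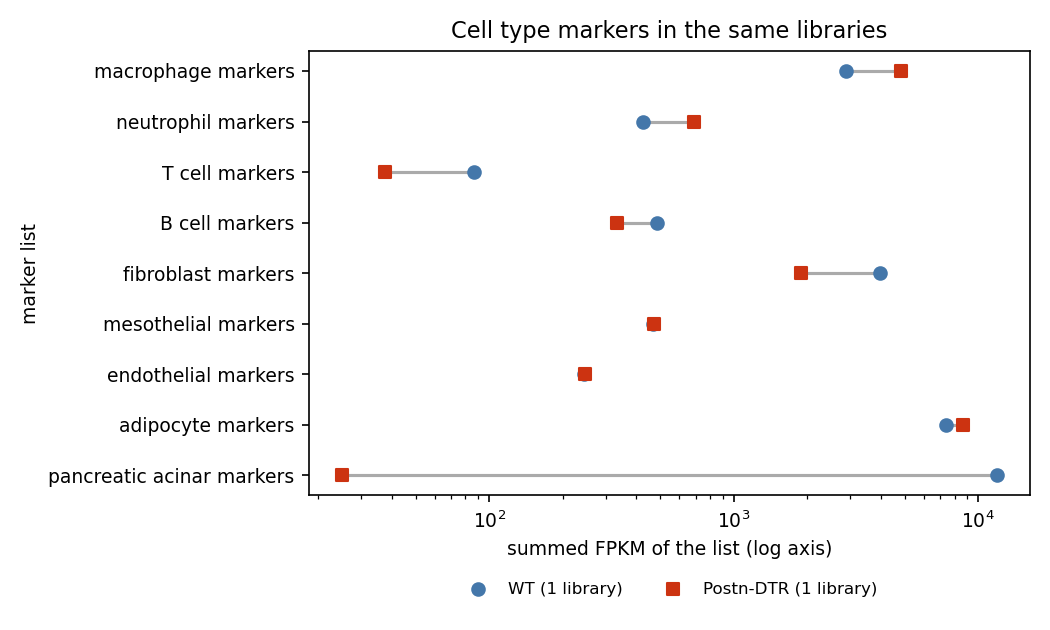
Summed FPKM of 9 marker lists on a log axis in the WT library (circles) and the Postn-DTR library (squares). Macrophage markers lie higher in Postn-DTR (4819 against 2878), T cell, B cell and fibroblast markers lie lower, and the acinar markers go from 11922 to 25.01.

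Adrenal cortex genes were checked as a sign of adrenal tissue in the sample. Of 3 compared out of 6 listed 2 were higher, Cyp11a1 and Hsd3b1, beside 3.88% of all genes. Cyp11b1 and Cyp11b2, which encode the enzymes of the last steps of corticosterone and aldosterone synthesis, were listed at 0 in both libraries. Star was at 8.21 and 5.54. Hsd3b1 was listed at 0 in WT and at 2.69 in Postn-DTR, and Cyp21a1 was under the minimum at 0.399 and 1.18. Hormone levels were not measured in these libraries.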

How the data were processed

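RNA of whole omentum was sequenced in 1 WT and 1 Postn-DTR library, grouped by the genotype label. The labels name a TruSeq stranded mRNA kit for these libraries, whereas the study's methods for RNA sequencing, which describe sorted cells, name a NEBNext Ultra kit. The authors deposited FPKM, 1 value per gene symbol. The submitters' processing notes name TopHat2 2.1.1, Bowtie2 2.2.8, SAMtools 0.1.18, Cuffdiff 2.2.1 and mm10. The annotation and depth are not given in the sources used here.

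From these FPKM the change of log2(FPKM + 1) was computed (Python 3.11.15, pandas 2.3.3), and genes whose FPKM averaged at least 1 were compared. Depth was estimated from low FPKM of genes with 1 transcript in GENCODE M21, as the depth that brought them nearest to whole fragments. With it, 78.6% of 514 values in WT and 77.9% of 476 in Postn-DTR lay within 0.1 of a whole fragment. The fit sought this closeness, so it is not a separate check of the depth. The steps were tested on simulated data. Fragments of each of the 10 genes were taken for its shortest coding transcript, rounded down, and intervals used scipy 1.17.1. Gene positions are from RefSeq on GRCm38, the assembly called mm10.

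The 10 genes and the 25 further lists were chosen with earlier results of these data known. The further lists overlap in part. For example, Per2 was in the induced and clock lists, Klf15 in the induced and KLF lists, and Mertk in the induced and macrophage lists. Named were the 10 genes and, from each list of related genes, up to 6 called genes with the largest changes, plus H6pd, Hsd11b2, Nr3c2 and Fkbp4. Other genes were named after their values were seen. The listed markers Ly6g and Trac were not analysed here. Alternatives were other pseudocounts, minimums, thresholds and scalings.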

Additional observations from a re-analysis of the deposited data

How the results depend on the processing

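No paired analysis was possible because each genotype had 1 library, and no library could be left out. Of 126 values, covering the counts, the median and the 10 changes, recomputed under 8 alternatives 78 stayed close to the reported ones and 48 moved. Of the 126, 46 carry a sign, and 0 reversed. A pseudocount cannot turn a sign, and the minimums tried left all 10 genes in the median. Only the values under the scalings could therefore have reversed. Elsewhere in the lists 40 genes changed sign under a scaling, and the p53 median of 0.20 became -0.10 at equal totals. The 8 higher genes of the group became 5 with the acinar genes removed and equal totals and 3 at a 3-fold threshold, while the background of higher genes became 2.33% and 1.52%. Scaling to the same 75th percentile left 7, without Klf9. At 1.5-fold 1 of the 10, Nr3c1, was lower. The median change of 1.33 became 1.21 with a pseudocount of 5, 1.23 after 75th percentile scaling and 0.9998 at equal totals. With a pseudocount of 0.1, 1 restrained gene, Nos2, was lower, as at 1.5-fold (1 gene), and 4 p53 targets were higher. With a pseudocount of 5, higher or changed were 1 clock gene, 1 p53 target, 2 paralogs and 5 restrained genes. A mean FPKM of at least 10 gave 2 clock genes, 1 p53 target, 2 paralogs and 3 restrained genes, and equal totals gave 3 clock genes. At 1.5-fold the numbers were 13 immediate early genes, 4 p53 targets, 16 paralogs and 1 chaperone or coregulator gene, and at 3-fold 2 clock genes, 5 immediate early genes, 1 p53 target, 1 paralog and 6 restrained genes. Over all genes, 509 higher and 410 lower became 642 and 643 with a pseudocount of 0.1 and 287 and 168 with 5. They became 526 and 422 without a minimum and 303 and 173 at a mean of 10. Scaling to the same 75th percentile gave 439 higher and 493 lower, and equal totals gave 306 and 792. The numbers were 1294 and 1160 at 1.5-fold and 199 and 153 at 3-fold. Counts of higher restrained genes were added after the data were seen. Stricter minimums, thresholds and larger pseudocounts lower a count by construction.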
